A study of Mus musculus with 38 samples.

Results

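The Zfp36 family of mRNA decay factors was followed here through 3 genes, Zfp36, Zfp36l1 and Zfp36l2, out of 55487 genes in each count table. Another relative, Zfp36l3, is also a row of the tables but had at most 27 counts in a library. It is not among the members, and sums over the family leave it out. The family was chosen by an earlier result of the same data: Zfp36 had been selected on its hypoxia-by-co-culture difference in BV2 cells, and Zfp36l1 and Zfp36l2 were added by name. The members were matched by symbol to 1 Ensembl identifier each in all 3 tables, and all 3 passed the filter on low counts in every fit. The values of the members in the BV2 libraries of the first experiment, and the hypoxia-by-co-culture differences in every cell type, are therefore given as description with no test.

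RNA-seq was made from 38 mouse libraries in 18 groups. BV2 is an immortalised mouse microglial line, GL261 is a mouse glioma line that stably carried the pEGFP-N1 plasmid, and BMDM are primary macrophages grown from wild-type mouse bone marrow. In the first experiment each cell type was kept alone or in direct co-culture, for 16 h in normoxia (21% O2) or hypoxia (below 0.1% O2), with 1 BV2 cell to 2 GL261 cells or 1 BMDM to 1 GL261 cell. In the second experiment BV2 or BMDM without glioma cells received DMSO in normoxia, DMSO in hypoxia, or 10 nM panobinostat, a histone deacetylase inhibitor, in hypoxia. The time was again 16 h, at the same oxygen levels. The medium held 2% serum for BV2 and 10% for BMDM. Groups held 2 libraries, except the BMDM co-cultures with 3. How the co-cultured cells were separated is not given in the sources used here, BV2 and GL261 each represent 1 line, and the ages of the mice are not given.

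Zfp36 family proteins bind AU-rich elements in the 3′ untranslated regions of short-lived mRNAs through a pair of CCCH zinc fingers. They recruit the CCR4-NOT deadenylase and decapping factors, which shortens the life of the bound mRNA. Zfp36, also called tristetraprolin, is itself an immediate early gene that serum, stress and inflammatory signals induce, and in macrophages it is known for limiting Tnf and other cytokine mRNAs. The p38-MK2 kinases phosphorylate tristetraprolin, which stabilises the protein and weakens its recruitment of deadenylases, and protein phosphatase 2A reverses this. Zfp36l1 and Zfp36l2 act on overlapping targets and are best known from lymphocyte and blood cell development.

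On GRCm38 (mm10), with the GENCODE M21 annotation, Zfp36 (ENSMUSG00000044786) lies on the minus strand at chr7:28376784-28380253, Zfp36l1 (ENSMUSG00000021127) on the minus strand at chr12:80107754-80113013, and Zfp36l2 (ENSMUSG00000045817) on the minus strand at chr17:84183931-84187947. Their fingers are shown as coding DNA, since this is what makes the 3 genes a family and what separates Zfp36 from the other two. Each stretch of 174 bases lies in exon 2 of 2 of the principal transcript and codes for 58 residues, from the first zinc-binding cysteine to the last histidine. The capitals mark the codons of the cysteines and histidines that hold the zinc, and the sequences are from the GENCODE M21 transcripts, 5′ to 3′. The stretches lie at chr7:28378044-28378217, chr12:80110075-80110248 and chr17:84186554-84186727.
Zfp36: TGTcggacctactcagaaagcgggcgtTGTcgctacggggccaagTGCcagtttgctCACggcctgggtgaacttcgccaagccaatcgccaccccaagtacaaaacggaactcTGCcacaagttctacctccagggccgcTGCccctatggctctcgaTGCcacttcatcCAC
Zfp36l1: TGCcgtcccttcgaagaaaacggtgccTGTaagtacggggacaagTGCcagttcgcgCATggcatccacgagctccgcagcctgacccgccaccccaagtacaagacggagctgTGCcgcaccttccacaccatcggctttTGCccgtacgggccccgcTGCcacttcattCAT
Zfp36l2: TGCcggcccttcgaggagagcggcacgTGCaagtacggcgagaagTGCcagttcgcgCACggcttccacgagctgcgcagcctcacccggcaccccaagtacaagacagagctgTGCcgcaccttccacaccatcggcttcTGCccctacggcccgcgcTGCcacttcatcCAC

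The zinc-binding codons stood at the same places in all 3 genes. Zfp36l1 and Zfp36l2 shared 54 of the 58 residues (93.1%), whereas Zfp36 shared 39 (67.2%) with Zfp36l1 and 40 (69.0%) with Zfp36l2. The proteins were of 319, 338 and 484 residues in the order Zfp36, Zfp36l1, Zfp36l2.

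Each member also carried the sequence that the family binds. The nonamer TTATTTATT, searched on the transcript strand, occurred once in each 3′ untranslated region, and it is shown in capitals with 10 bases on either side. The windows lie at chr7:28376951-28376979, chr12:80108167-80108195 and chr17:84184914-84184942, all on the minus strand.
Zfp36 element: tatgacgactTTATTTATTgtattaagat
Zfp36l1 element: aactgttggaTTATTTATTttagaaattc
Zfp36l2 element: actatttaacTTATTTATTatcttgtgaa

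The nonamer was present in 7.66% of the 21014 genes with an annotated 3′ untranslated region. Among untranslated regions within 10% of a member's own length, the share was 4.18% for Zfp36 (774 bases), 10.3% for Zfp36l1 (1835 bases) and 10.4% for Zfp36l2 (1822 bases). The core pentamer ATTTA occurred 3, 9 and 5 times, and the nonamer holds 1 of these in each gene. In the RefSeq promoter windows (GRCm38.p6) of Zfp36 and Zfp36l1, the hypoxia response core ACGTG, searched on both strands, was not found, against 19.6% of all 32851 windows. The Zfp36 window held 1 CArG box, the serum response factor motif, which 1.63% of all windows held. A match or its absence in so short a window is a description of its letters.

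Total counts per library ran from 9634700 to 27238900, so that the floor of 3 counts was worth 0.110 to 0.311 CPM, the count relative to the library's total. Levels below are CPM scaled by the trimmed mean of M values (TMM) within 1 cell type of 1 experiment, so levels in different cell types or experiments were normalised separately. The lowest count of any member was 195 reads, for Zfp36 in a normoxic BV2 library. An antisense or non-coding gene overlaps each member on the other strand (Gm44710, Gm26669 and AC132455.1), and whether the counting used strand is not given in the sources used here. Gm44710 had at most 73 counts and AC132455.1 at most 26 in a library, while Gm26669 was not a row of the tables and shares 49.2% of the 75-base words of Zfp36l1. Microglia and macrophage markers summed to 2691 to 3806 CPM in BV2 and 28.9 to 73.9 in GL261 in the first experiment, and to 9725 to 25225 in BMDM. In BV2, P2ry12 and Tmem119, which mark resident microglia, stayed at or below 7.64 and 2.95 CPM in the first experiment. In the second experiment the same markers summed to 31812 and 21471 CPM in the normoxic BMDM libraries, but to 3742 and 12174 CPM in the hypoxic DMSO libraries (replicates 1 and 2) and to 1460 and 5877 CPM with panobinostat. Neutrophil and progenitor markers summed to at most 48.4 CPM in any library, with Ly6g at no more than 2 counts, and lymphoid and dendritic markers to at most 17.6 CPM.

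The 3 cell types were led by different members when levels were expressed per kilobase of principal transcript. In GL261, Zfp36l1 made up 68.5% to 79.9% of the family's summed CPM per kilobase across the 4 groups. In BMDM of the first experiment Zfp36 led with 55.3% to 67.9%, and in normoxic BV2 monoculture Zfp36l2 led with 61.7%. Zfp36 was the smallest of the 3 in normoxic BV2 without glioma cells, with 10.6% of the sum in the first experiment and 6.02% in the second. In normoxic BV2 co-culture it stood at 24.5%, beside 24.0% for Zfp36l1. In hypoxic BV2 co-culture the 3 members came to near-equal levels of 15.9 (Zfp36), 14.5 (Zfp36l1) and 15.8 (Zfp36l2) CPM per kilobase, and Zfp36l2 led instead of Zfp36 when the length of all annotated exons was used. In BMDM of the second experiment Zfp36l2 led the group means, with 48.7% to 65.1%, but not every library. In hypoxia with DMSO, Zfp36 led in replicate 1 (137 against 62.4 CPM per kilobase for Zfp36l2) and Zfp36l2 in replicate 2 (113 against 14.8 for Zfp36).

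**Figure D1:**
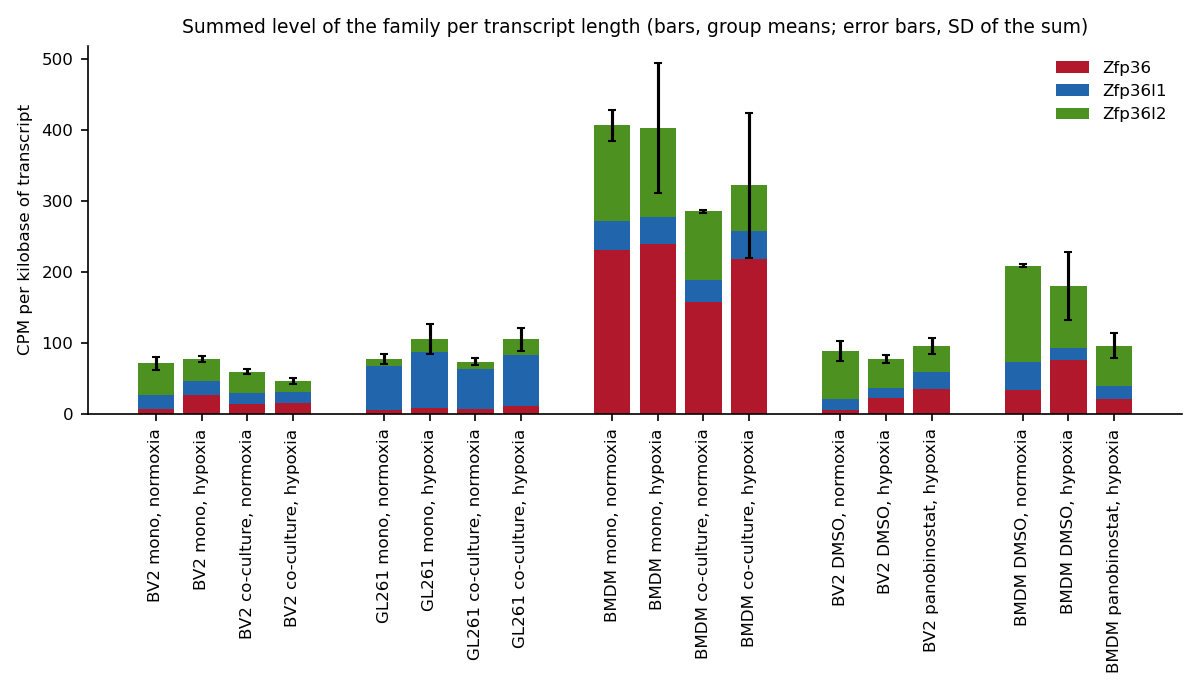
Stacked bars give the mean CPM per kilobase of principal transcript of Zfp36, Zfp36l1 and Zfp36l2 in the 18 groups, with the SD of the summed level over 2 or 3 libraries. The sum lies near 407 in normoxic BMDM monoculture and 71.0 in normoxic BV2 monoculture, and Zfp36l1 fills most of each GL261 bar.

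Zfp36 ranged from 14.7 to 41.6 CPM over the 8 GL261 libraries and from 17.9 to 76.2 CPM over the 8 BV2 libraries of the first experiment. It ranged from 423 to 846 CPM over the 10 BMDM libraries of that experiment, above every BV2 and GL261 library. In the second experiment it lay between 13.6 and 119 CPM in BV2 and between 23.9 and 382 CPM in BMDM, ranges that overlapped. Zfp36l1 was at 162 to 273 CPM in GL261, 80.5 to 173 CPM in BMDM and 39.0 to 63.4 CPM in BV2 of the first experiment. Zfp36l2 was at 193 to 491 CPM in BMDM, 49.6 to 167 CPM in BV2 and 31.8 to 76.8 CPM in GL261. The range of Zfp36l1 in BV2 lay below those in BMDM and GL261, and the BMDM range of Zfp36l2 lay above the other two.

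**Figure D2:**
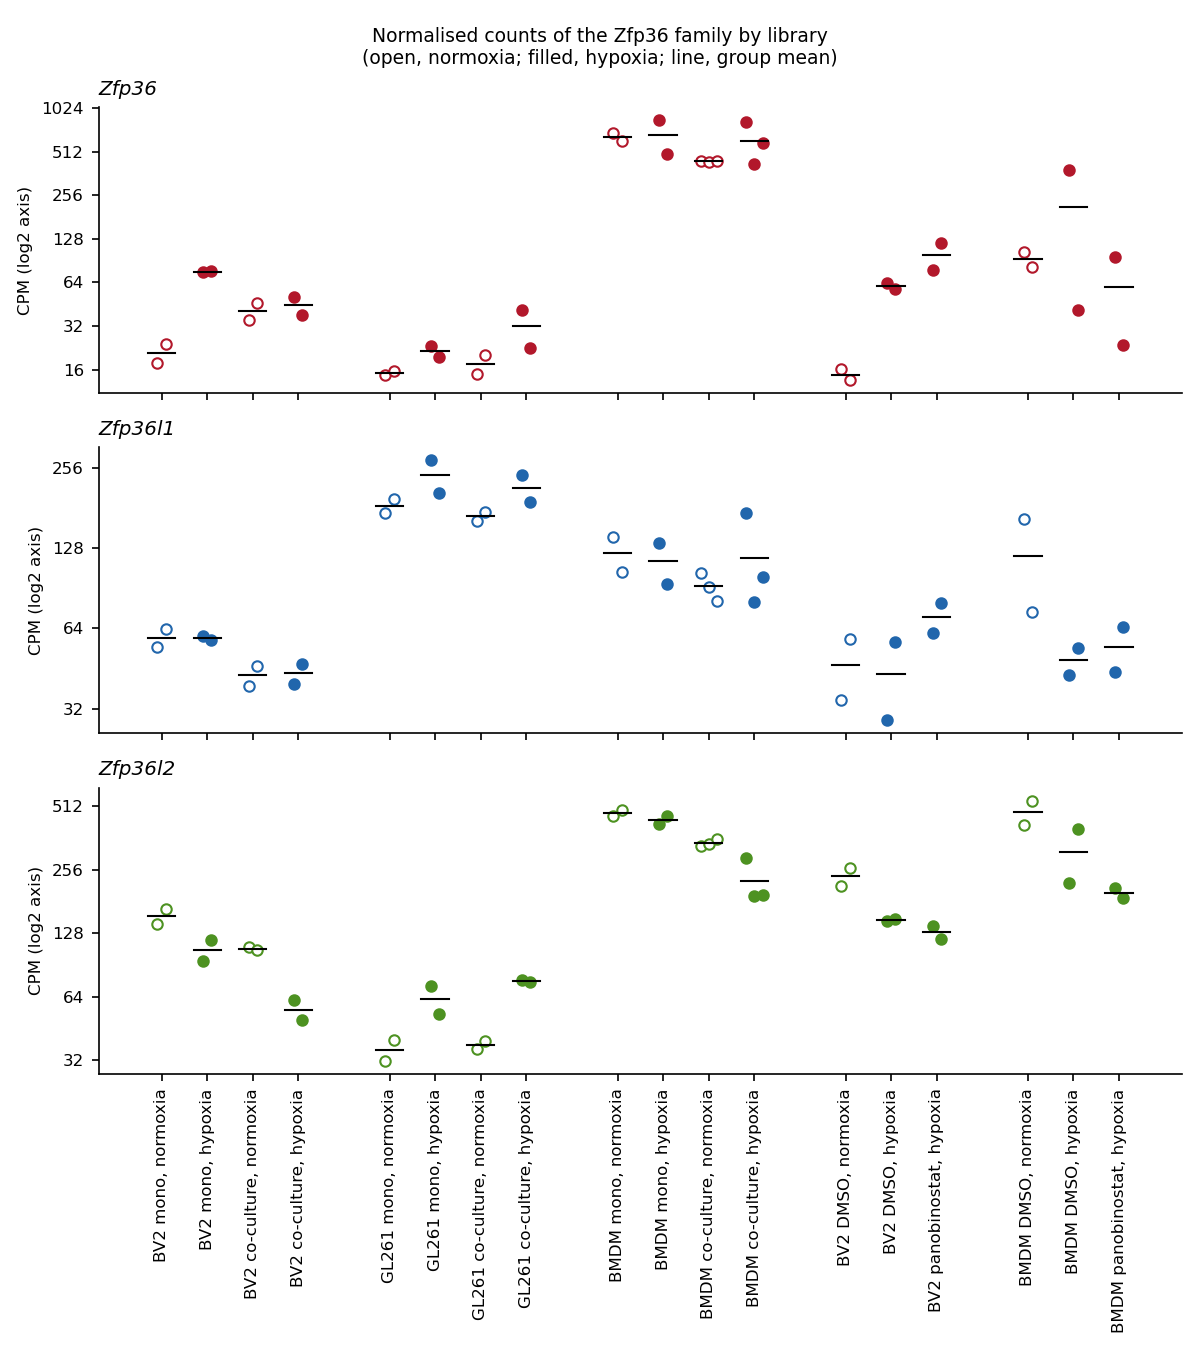
Each point is the TMM-scaled CPM of 1 library on a log2 axis, open for normoxia and filled for hypoxia, with the group mean as a line, for Zfp36 (top), Zfp36l1 (middle) and Zfp36l2 (bottom). Zfp36 is at 423 to 846 CPM in first-experiment BMDM, and the hypoxic DMSO BMDM libraries of the second experiment lie apart at 382 and 41.4 CPM.

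In BV2 of the first experiment, Zfp36 rose with hypoxia in monoculture but hardly differed between oxygen levels in co-culture. It was at 17.9 and 24.0 CPM in normoxic monoculture and at 75.8 and 76.2 CPM in hypoxic monoculture. It was at 35.1 and 46.3 CPM in normoxic co-culture and at 50.6 and 38.2 CPM in hypoxic co-culture. The monoculture groups did not overlap, the co-culture groups did, and both co-culture groups lay between the 2 monoculture groups. The log2 fold change of hypoxia against normoxia was 1.86 ± 0.17 (SE) in monoculture and 0.12 ± 0.17 in co-culture. Co-culture against monoculture gave 0.96 ± 0.17 in normoxia and -0.77 ± 0.16 in hypoxia, so the sign turned with oxygen. The hypoxia-by-co-culture difference, by which Zfp36 had been selected, was -1.74 ± 0.23.

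Zfp36l2 went the other way from Zfp36 in BV2 monoculture, as a description. It was at 142 and 167 CPM in normoxic and 94.4 and 119 CPM in hypoxic monoculture. It was at 110 and 107 CPM in normoxic and 61.7 and 49.6 CPM in hypoxic co-culture. Hypoxic libraries lay below normoxic ones in both kinds of culture, and co-culture libraries below monoculture ones at both oxygen levels. The log2 fold changes were -0.54 ± 0.14 for hypoxia in monoculture, -0.96 ± 0.14 for hypoxia in co-culture, -0.51 ± 0.14 for co-culture in normoxia and -0.94 ± 0.14 for co-culture in hypoxia. Of the genes tested, 58.0%, 38.9%, 20.8% and 8.95% changed at least as much in these comparisons, in the same order and in either direction. The hypoxia-by-co-culture difference of Zfp36l2 was -0.42 ± 0.19, and 35.4% of genes had one at least as large.

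Zfp36l1 in BV2 lay lower in co-culture than in monoculture. Its values were 54.3 and 63.4 CPM in normoxic monoculture, 60.1 and 57.8 in hypoxic monoculture, 39.0 and 46.4 in normoxic co-culture, and 39.6 and 47.2 in hypoxic co-culture. Hypoxia gave log2 fold changes of 0.00 ± 0.13 and 0.02 ± 0.13 in monoculture and co-culture. As a log2 ratio of mean CPM without TMM scaling, the co-culture value was -0.09, and -0.24 after subtraction of the estimated GL261 RNA. Estimated from partner-specific genes, that RNA would supply 2.28% to 4.37% of Zfp36l1 in normoxic and 12.3% to 12.9% in hypoxic co-culture. Co-culture gave -0.46 ± 0.13 in normoxia and -0.44 ± 0.13 in hypoxia, with no overlap between the groups, and the hypoxia-by-co-culture difference was 0.02 ± 0.19. Of the genes tested, 24.8% changed at least as much with co-culture in normoxia and 26.2% in hypoxia, in either direction.

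**Figure D3:**
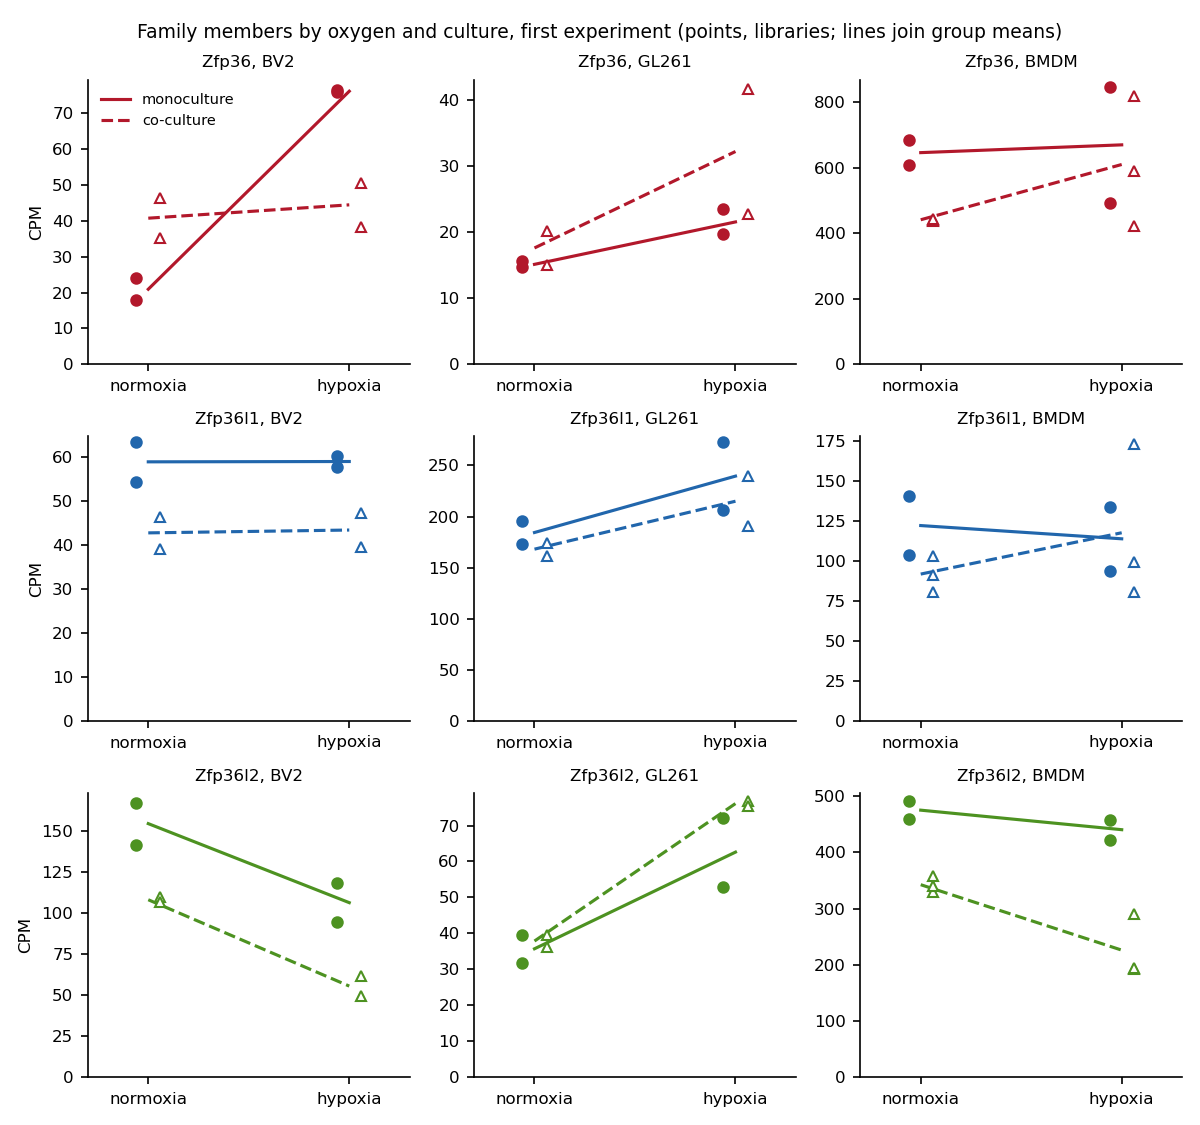
TMM-scaled CPM of each member (rows) in normoxia and hypoxia for BV2, GL261 and BMDM of the first experiment (columns), with points for libraries and lines joining group means, solid for monoculture and dashed for co-culture. For Zfp36 in BV2 the lines cross, from 20.9 to 76.0 CPM in monoculture and from 40.7 to 44.4 CPM in co-culture.

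The second experiment gave libraries that had not chosen the members, and in BV2 with DMSO the hypoxia responses of Zfp36 and Zfp36l2 passed the test. Zfp36 was at 16.1 and 13.6 CPM in normoxia and at 63.4 and 57.5 CPM in hypoxia. It rose 4.08-fold (log2 fold change 2.03 ± 0.25, adjusted p = 4.63e-04, edgeR quasi-likelihood F test with Benjamini-Hochberg adjustment over all genes). Zfp36l2 was at 214 and 261 CPM in normoxia and at 145 and 149 CPM in hypoxia, and fell (log2 fold change -0.69 ± 0.20, edgeR adjusted p = 0.0240). Neither pair of groups overlapped. Zfp36l1 was at 34.4 and 58.6 CPM in normoxia and 28.9 and 57.1 CPM in hypoxia, with overlap and no call (log2 fold change -0.11 ± 0.34, edgeR adjusted p = 0.818). Of the 13294 genes tested, 17.2% were called higher and 20.2% lower in this comparison. The Zfp36 call held without each library in turn (edgeR adjusted p from 1.01e-04 to 0.00535). The Zfp36l2 call was lost without either hypoxic library (edgeR adjusted p = 0.130 without replicate 1 and 0.0844 without replicate 2), without normoxic replicate 2 (0.0777), and in a fit of only these 2 groups (0.0744).

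In GL261 glioma cells Zfp36l2 rose with hypoxia, the direction opposite to that in BV2. It was at 31.8 and 39.7 CPM in normoxic monoculture and 72.2 and 53.0 CPM in hypoxic monoculture. It was at 36.2 and 39.6 CPM in normoxic co-culture and 76.8 and 75.4 CPM in hypoxic co-culture. No hypoxic library overlapped a normoxic one. The rise was 1.75-fold in monoculture (log2 fold change 0.81 ± 0.17, edgeR adjusted p = 0.00224) and 2.01-fold in co-culture (1.01 ± 0.17, edgeR adjusted p = 4.09e-04). Both calls held under every alternative fit that kept the gene, including without each library in turn (largest edgeR adjusted p = 0.0284). The co-culture fit without genes high in the partner removed Zfp36l2 itself.

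Zfp36 in GL261 passed the test for hypoxia in co-culture only. It was at 14.7 and 15.6 CPM in normoxic and 23.4 and 19.6 CPM in hypoxic monoculture (log2 fold change 0.51 ± 0.25, edgeR adjusted p = 0.122). It was at 14.996 and 20.2 CPM in normoxic and 41.6 and 22.7 CPM in hypoxic co-culture (log2 fold change 0.87 ± 0.25, edgeR adjusted p = 0.0136). The latter call rested on single libraries, since it was lost without replicate 1 of hypoxic co-culture (edgeR adjusted p = 0.203, log2 fold change 0.38) and without replicate 1 of normoxic co-culture (0.113). The 2 hypoxia effects were not shown to differ: the hypoxia-by-co-culture difference was 0.35 ± 0.36.

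Zfp36l1, the leading member in GL261, was at 174 and 195 CPM in normoxic and 273 and 206 CPM in hypoxic monoculture. It was at 162 and 175 CPM in normoxic and 240 and 191 CPM in hypoxic co-culture. Hypoxic libraries lay above normoxic ones in both cultures, but neither comparison passed (log2 fold change 0.38 ± 0.17, edgeR adjusted p = 0.0832 in monoculture, and 0.35 ± 0.17, edgeR adjusted p = 0.0919 in co-culture). Without replicate 2 of the hypoxic group, the edgeR adjusted p was 0.0172 in monoculture and 0.0416 in co-culture. Among 15189 genes tested in GL261, hypoxia was called higher for 23.2% and lower for 21.4% in monoculture, and higher for 26.8% and lower for 25.6% in co-culture.

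Co-culture with BV2 moved no member past the threshold in GL261. In normoxia the log2 fold change of Zfp36 was 0.22 ± 0.26 (edgeR adjusted p = 0.864), that of Zfp36l1 -0.13 ± 0.17 (0.871) and that of Zfp36l2 0.08 ± 0.17 (0.924). In hypoxia the log2 fold change of Zfp36 was 0.57 ± 0.25 (edgeR adjusted p = 0.311), that of Zfp36l1 -0.16 ± 0.16 (0.698) and that of Zfp36l2 0.28 ± 0.16 (0.449). Few genes were called in these comparisons, with 0.323% higher and 0.191% lower in normoxia, and 0.889% higher and 0.5% lower in hypoxia.

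In BMDM of the first experiment only Zfp36l2 passed a test, in 2 of the 4 comparisons. It was at 459 and 491 CPM in normoxic and 422 and 458 CPM in hypoxic monoculture, which differed by a log2 fold change of -0.11 ± 0.20 (edgeR adjusted p = 0.738). It was at 330, 339 and 358 CPM in normoxic and 291, 193 and 195 CPM in hypoxic co-culture. All 3 hypoxic co-culture libraries were below the 3 normoxic ones and below both hypoxic monoculture libraries. Zfp36l2 fell with hypoxia in co-culture (log2 fold change -0.60 ± 0.16, edgeR adjusted p = 0.0159) and with co-culture in hypoxia (-0.96 ± 0.18, edgeR adjusted p = 0.0147). In normoxia the co-culture libraries were lower too, but the comparison did not pass (-0.47 ± 0.18, edgeR adjusted p = 0.295). The hypoxia call was lost without replicate 3 of hypoxic co-culture (edgeR adjusted p = 0.0523). The co-culture call was lost without either hypoxic monoculture library (0.103 without replicate 1 and 0.153 without replicate 2) and in a fit of only those 2 groups (0.0683). Zfp36l2 gave a hypoxia-by-co-culture difference of -0.49 ± 0.26 in BMDM, beside -0.42 ± 0.19 in BV2 and 0.19 ± 0.23 in GL261.

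Zfp36 was high in BMDM at both oxygen levels. It was at 683 and 608 CPM in normoxic and 846 and 493 CPM in hypoxic monoculture, which overlapped (log2 fold change 0.05 ± 0.29, edgeR adjusted p = 0.927). It was at 441, 437 and 444 CPM in normoxic and 817, 423 and 589 CPM in hypoxic co-culture (0.47 ± 0.24, edgeR adjusted p = 0.155). The hypoxic libraries spread far more than the normoxic ones, and without replicate 2 of hypoxic co-culture the edgeR adjusted p was 0.0391. Co-culture gave -0.55 ± 0.27 in normoxia, where the groups did not overlap (edgeR adjusted p = 0.425), and -0.13 ± 0.27 in hypoxia (0.801). The hypoxia-by-co-culture difference was 0.41 ± 0.38, beside -1.74 ± 0.23 in BV2, from a separate table. The corresponding difference between BV2 and GL261 was -2.06 ± 0.47 for Zfp36, 0.07 ± 0.31 for Zfp36l1 and -0.59 ± 0.33 for Zfp36l2.

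Zfp36l1 in BMDM was at 141 and 104 CPM in normoxic and 134 and 93.9 CPM in hypoxic monoculture. It was at 104, 91.3 and 80.9 CPM in normoxic and 173, 80.5 and 99.4 CPM in hypoxic co-culture. The groups overlapped in every comparison except co-culture against monoculture in normoxia, where they nearly met. Hypoxia gave log2 fold changes of -0.10 ± 0.32 in monoculture and 0.36 ± 0.26 in co-culture, and the edgeR adjusted p lay between 0.321 and 0.945 over the 4 comparisons. Its highest library was replicate 1 of hypoxic co-culture, which was also the highest of its group for Zfp36 and Zfp36l2. Among 14806 genes tested, hypoxia was called higher for 13.3% and lower for 10.6% in monoculture and for 17.5% and 17.3% in co-culture. Co-culture was called higher for 1.57% and lower for 0.0675% in normoxia and for 4.06% and 3.05% in hypoxia.

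**Figure D4:**
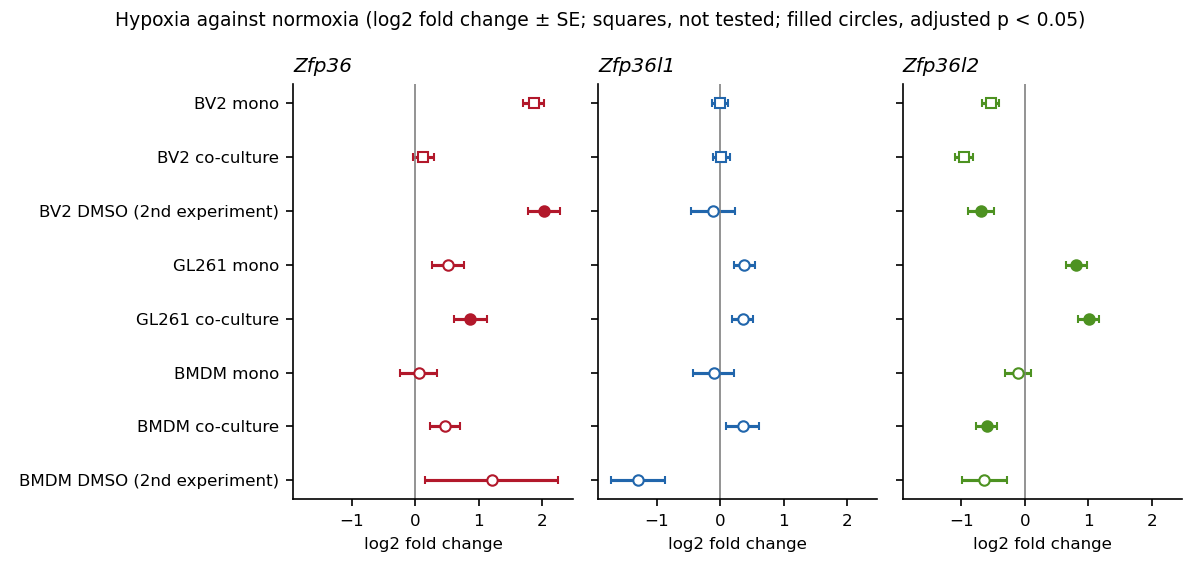
Log2 fold change of hypoxia against normoxia with its SE for each member in 8 settings, as squares where the value is a description and as circles where it was tested, filled where the adjusted p was below 0.05. Zfp36l2 lies at 0.81 and 1.01 in GL261 and at -0.54, -0.96 and -0.69 in BV2.

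In BMDM of the second experiment, no member passed a test and the 2 replicates disagreed for Zfp36. It was at 103 and 81.4 CPM in normoxia with DMSO, at 382 and 41.4 CPM in hypoxia with DMSO, and at 95.5 and 23.9 CPM with panobinostat (replicates 1 and 2). The hypoxia effect was 1.20 ± 1.05 (edgeR adjusted p = 0.492), and without replicate 1 of the hypoxic DMSO group its sign turned, to -1.21. Immediate early genes also had more CPM in replicate 1 than in replicate 2 for 17 of 22 in this group, with a median log2 ratio of 0.70, against 47.9% of 13546 genes and a median of -0.03. Replicate 1 was likewise the higher for 17 of 22 with panobinostat (median 0.79) and for 15 of 22 in normoxia (0.23). Fosb was at 240 and 1.44 CPM, Fos at 504 and 38.4, and Dusp1 at 611 and 139 in the hypoxic DMSO libraries, examples chosen after their values were seen. The macrophage marker sum in the same libraries was 3742 and 12174 CPM, and the part of either in the result was not tested.

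Zfp36l1 in these BMDM was at 164 and 73.9 CPM in normoxia and at 42.9 and 54.2 CPM in hypoxia with DMSO. The groups did not overlap, and the log2 fold change was -1.29 ± 0.43 (edgeR adjusted p = 0.141). Zfp36l2 was at 417 and 543 CPM in normoxia and 220 and 398 CPM in hypoxia with DMSO (log2 fold change -0.63 ± 0.36, edgeR adjusted p = 0.311), again without overlap and the same sign as in BV2. Only 0.469% of 14914 genes were called higher and 0.0134% lower, so a miss in these libraries says little about any gene. Blocking on replicate number gave 2127 calls in place of 72, and no member was among them (edgeR adjusted p = 0.672, 0.0985 and 0.1803 for Zfp36, Zfp36l1 and Zfp36l2). The blocked log2 fold change of Zfp36 was 0.43 ± 0.66.

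Panobinostat against DMSO in hypoxic BV2 gave higher values of Zfp36 and Zfp36l1 that did not pass the test without a block for replicate. Zfp36 went from 63.4 and 57.5 CPM to 77.9 and 119 CPM (log2 fold change 0.71 ± 0.24, edgeR adjusted p = 0.0733). Zfp36l1 went from 28.9 and 57.1 CPM to 61.6 and 79.5 CPM (0.71 ± 0.34, edgeR adjusted p = 0.186). Both pairs of groups did not overlap, so that within each replicate number the treated library was necessarily the higher one. With the replicate number as a block the edgeR adjusted p was 0.0114 for Zfp36 (log2 fold change 0.69 ± 0.21) and 0.00364 for Zfp36l1 (0.78 ± 0.20), and 4025 genes in place of 1941 were called. Zfp36l2 went from 145 and 149 CPM to 139 and 121 CPM (-0.18 ± 0.20, edgeR adjusted p = 0.584). Without the block, 7.21% of genes were called higher and 7.39% lower.

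In hypoxic BMDM, panobinostat gave a log2 fold change of -1.83 ± 1.07 for Zfp36 (edgeR adjusted p = 0.329), which became 0.56 without replicate 1 of the hypoxic DMSO group. Zfp36l1 went from 42.9 and 54.2 to 44.0 and 64.6 CPM (0.16 ± 0.42, edgeR adjusted p = 0.837). Zfp36l2 went from 220 and 398 to 210 and 188 CPM, without overlap (-0.64 ± 0.36, edgeR adjusted p = 0.317). No gene was called by edgeR in this comparison (0.0% in either direction), although 3868 had an unadjusted p below 0.05. DESeq2 called 2221 and a block on replicate number 2044, none of them a member in the blocked fit (smallest edgeR adjusted p = 0.148). The panobinostat effect in BV2 minus that in BMDM was 2.53 ± 1.19 for Zfp36 (edgeR adjusted p = 0.465), 0.54 ± 0.61 for Zfp36l1 (0.807) and 0.44 ± 0.40 for Zfp36l2 (0.745). Without replicate 1 of the hypoxic DMSO BMDM group the Zfp36 difference was 0.06. This difference was called higher for 0.0188% and lower for 0.00627% of 15955 genes, 4 in all, and for 166 with the block. The hypoxia effect with DMSO in BV2 minus that in BMDM was 0.88 ± 1.18 for Zfp36 (edgeR adjusted p = 0.761), 1.25 ± 0.61 for Zfp36l1 (0.312) and 0.02 ± 0.40 for Zfp36l2 (1.00), with 0.458% of genes called higher and 0.207% lower, 106 in all, and 1298 with the block, under which no member passed either difference. For Zfp36 the latter difference was 3.27 without replicate 1 and 0.02 without replicate 2 of the hypoxic DMSO BMDM group, and 1.66 ± 0.77 with the block (edgeR adjusted p = 0.208). The hypoxia and panobinostat comparisons of a cell type share the hypoxic DMSO libraries. In all, 7 of the 42 tests on members passed, in fits without a block for replicate. In the comparisons and directions of these 7, 3.05% to 26.8% of all genes were called. The count is therefore not read as a result about the members.

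RNA of the partner cell was measured in every co-culture library. Its share was the median of co-culture CPM over partner monoculture CPM among genes that reached 20 CPM in the partner and were 100-fold or more above the cell studied. The share of GL261 RNA was 0.951% and 0.568% in normoxic BV2 co-culture, 2.07% and 2.36% in hypoxic BV2 co-culture, 1.29% to 3.70% in normoxic BMDM co-culture and 1.72% to 6.28% in hypoxic BMDM co-culture. The share of BV2 RNA in GL261 was 0.218% to 0.915%. At these shares GL261 RNA would supply 0.907% to 1.37% of the Zfp36 and 12.3% to 12.9% of the Zfp36l1 in hypoxic BV2 co-culture, and 2.44% to 14.8% of the Zfp36l1 in hypoxic BMDM co-culture. Of Zfp36l2 it would supply 2.16% to 3.06% in hypoxic BV2 co-culture and 0.379% to 1.97% in hypoxic BMDM co-culture. After subtraction, 25 of 27 log2 ratios of mean CPM without TMM scaling moved by less than the SE of the edgeR fit. The other 2 were those of Zfp36l1 in BV2. They went from -0.09 to -0.24 for hypoxia in co-culture and from -0.45 to -0.65 for co-culture in hypoxia. In such bulk samples, fewer cells of a type and less RNA per cell cannot be told apart.

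The machinery that the family recruits was followed through gene lists. In BV2 monoculture, hypoxia called 30.9% of 14432 genes higher and 31.0% lower. Of 18 deadenylase genes, which shorten poly(A) tails, 7 rose and 6 fell (median log2 fold change -0.06, against 0.00 for all genes). The leaders were Btg2 (3.19 ± 0.22) and Btg1 (2.10 ± 0.11), antiproliferative partners of the deadenylase, while the subunits Cnot6 (-1.08 ± 0.12) and Cnot9 (-0.83 ± 0.11) fell. Of 17 decapping and 5′ decay genes, 2 rose and 10 fell (median -0.64), among them the Sm-like subunits Lsm6 (-2.21 ± 0.13) and Lsm2 (-1.95 ± 0.13). Of 13 RNA exosome genes tested, none rose and 12 fell (median -1.13), led by Exosc1 (-2.12 ± 0.13) and Exosc2 (-1.56 ± 0.16). Each of these named genes had an edgeR adjusted p of at most 9.33e-06.

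Of the 13 exosome genes, 0 were called higher and 8 lower in BV2 with DMSO (median -1.03, with 17.2% of all genes higher and 20.2% lower). In BMDM monoculture 0 were called higher and 7 lower (median -0.57, with 13.3% of all genes higher and 10.6% lower). In GL261 monoculture 3 were called higher and 4 lower (median 0.05), shares near the 23.2% and 21.4% of all genes, with the nuclease Dis3 up (1.27 ± 0.12, edgeR adjusted p = 1.53e-05) and Exosc4 down (-0.78 ± 0.13, 6.60e-04). Of the deadenylase list, 9 of 18 rose and none fell in GL261 monoculture (median 0.42, all genes -0.03). In GL261 co-culture 10 rose and none fell, beside 26.8% of all genes higher and 25.6% lower. In BMDM monoculture 3 rose and 1 fell. Lsm2 fell in GL261 monoculture (-1.87 ± 0.17) and in BMDM monoculture (-1.24 ± 0.22, edgeR adjusted p = 0.00285) as it did in BV2. The differences between cell types were not tested for these lists.

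Other RNA-binding proteins that meet AU-rich or stem-loop elements were called higher for 2 of 16 and lower for 7 of 16 in hypoxic BV2 monoculture (median -0.22), beside 30.9% and 31.0% of all genes. Elavl1, which stabilises AU-rich mRNAs, fell (-1.44 ± 0.11, edgeR adjusted p = 1.49e-08), as did Ybx1 (-1.43 ± 0.14). In GL261 monoculture 7 of 17 rose and 1 fell, the faller being Ybx1 (-0.94 ± 0.15, edgeR adjusted p = 5.60e-04), and Rc3h2, a stem-loop binding relative of Roquin, rose (0.69 ± 0.15). Of 19 regulators of the p38-MK2 branch, 3 rose and 11 fell in BV2 monoculture (median -0.55). The phosphatase Dusp1, which switches p38 off, rose (4.54 ± 0.20, edgeR adjusted p = 6.38e-11), and the 14-3-3 gene Ywhae fell (-1.24 ± 0.11). In GL261 monoculture 3 of these regulators rose and 6 fell, with Dusp10 at 2.00 ± 0.24 and Dusp1 at 1.28 ± 0.16. Of all genes in GL261 monoculture, 23.2% were called higher and 21.4% lower.

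Known AU-rich-element target mRNAs are given as counts beside the share over all genes. In BV2 monoculture 11 of 22 tested rose and 2 fell (median 0.98), and in BV2 co-culture, where 35.2% of all genes were higher and 32.1% lower, 13 rose and 3 fell (median 0.55). Ier3 rose in both (4.26 ± 0.15 and 3.92 ± 0.15), and the cyclin Ccnd1 fell in both (-1.99 ± 0.11 and -1.58 ± 0.11). In GL261 monoculture 12 of 20 rose and none fell (median 1.96, with 23.2% of all genes higher and 21.4% lower), with Tnfaip3 at 4.06 ± 0.47 and the angiogenic factor Vegfa at 3.57 ± 0.18. In BMDM monoculture 7 of 28 rose, 2 fell and 19 did not pass (median 1.24, with 13.3% of all genes higher and 10.6% lower), with Vegfa at 4.48 ± 0.32. In BV2 with DMSO 9 of 20 rose and 5 fell (median 0.83, with 17.2% of all genes higher and 20.2% lower). With panobinostat 2 of 20 rose and 2 fell in BV2 (median -0.10), near the 7.21% and 7.39% of all genes, Fos being up (2.44 ± 0.36, edgeR adjusted p = 0.00425) and Nfkbia, an inhibitor of NF-kappaB, down (-0.98 ± 0.29, edgeR adjusted p = 0.0466).

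Immediate early genes, the class to which Zfp36 belongs, were called higher more often than lower in the hypoxia comparisons given here. In BV2 monoculture 17 of 22 rose and 2 fell (median 1.42), beside 30.9% of all genes higher and 31.0% lower. In BV2 co-culture 15 rose and 4 fell (1.45), beside 35.2% and 32.1%. In GL261 monoculture 17 rose and 2 fell (1.57), beside 23.2% and 21.4%. In BMDM monoculture 14 rose and none fell (1.04), beside 13.3% and 10.6%, although Zfp36 itself was not called there. In BV2 with DMSO 13 of 21 rose and 2 fell (1.63), beside 17.2% and 20.2%. With panobinostat 5 of 21 rose and none fell (0.72), beside 7.21% and 7.39%, led by Fos and the nuclear receptor gene Nr4a1 (2.36 ± 0.44, edgeR adjusted p = 0.00975).

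In the contrasts by which Zfp36 was chosen, immediate early genes are given as counts beside the background. BV2 co-culture in normoxia raised 13 of 22 and lowered none, against 5.77% of all genes higher and 9.14% lower, with Fos at 2.25 ± 0.19 and Nr4a1 at 2.14 ± 0.21. In hypoxia, co-culture raised 7 and lowered 1, against 8.13% higher and 7.57% lower. The hypoxia-by-co-culture difference was lower for 5 of the 22 and higher for none (median -0.16), against 1.03% of all genes lower and 1.16% higher, 316 in all and 59 to 682 without 1 library. Nr4a1 (-1.62 ± 0.29, edgeR adjusted p = 0.0141) and Fos (-1.56 ± 0.25, edgeR adjusted p = 0.00881) had the largest falls, and among deadenylase genes only Btg2 was called (-1.44 ± 0.30). The lists overlap: Btg2 is also an immediate early gene of the list, and Fos is also on the list of AU-rich-element targets. Of the AU-rich-element targets 1 was called higher, Ptgs2, the inducible cyclooxygenase gene (1.51 ± 0.31, edgeR adjusted p = 0.0232), and 1 lower, Fos. The summed CPM of the immediate early list in BV2 was 943 and 1054 in normoxic monoculture, 3137 and 3131 in hypoxic monoculture, 1264 and 1398 in normoxic co-culture and 3840 and 3426 in hypoxic co-culture. The sum was highest in hypoxic co-culture, but the list's median CPM overlapped between the hypoxic groups, at 70.7 and 52.1 there and at 65.6 and 58.9 in monoculture.

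**Figure D5:**
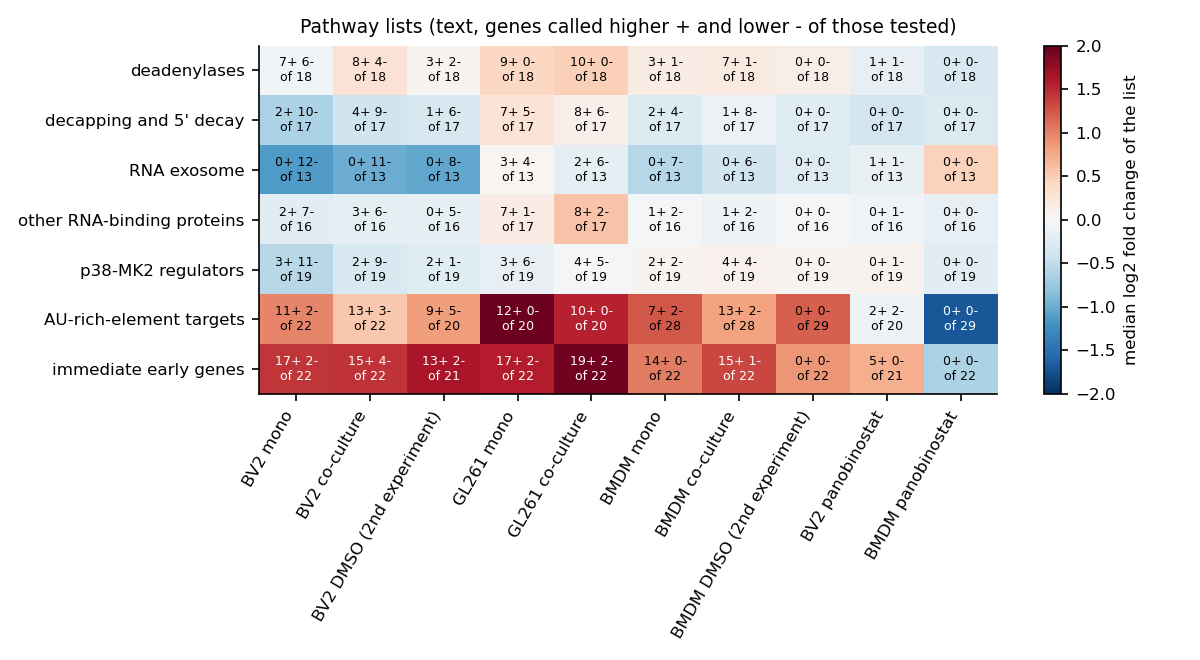
Colour gives the median log2 fold change of each gene list (rows) in 8 hypoxia and 2 panobinostat comparisons (columns), and the text gives how many genes were called higher and lower of those tested. Immediate early genes are red in all hypoxia columns, with 17 of 22 higher in BV2 and GL261 monoculture, and the RNA exosome list is blue in BV2 with 12 of 13 lower.

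The genes most like each member over the 8 first-experiment libraries were ranked by Pearson correlation of log2 CPM, as a description without a test, since the libraries share 4 conditions. In BV2, among 7933 genes, Zfp36 was followed most closely by Tmem38a (r = 0.977), Pmvk (0.967) and Gstm1 (0.951). Zfp36l2 was followed by Nrp2 (0.995), Kcnk13 (0.990) and Nfatc1 (0.985), and Zfp36l1 by Mgst3 (0.964), Nxpe3 (0.963) and Snx9 (0.952). In GL261, among 8513 genes, the nearest were Huwe1 (0.962), Ube2d3 (0.954) and Zc3hav1 (0.949) for Zfp36, Eif4g3 (0.991), Vma21 (0.983) and Nfatc1 (0.977) for Zfp36l1, and Kif13b (0.995) and Ubr7 (0.994) for Zfp36l2. Between the members themselves r was -0.38 for Zfp36 with Zfp36l2 in BV2 and 0.83 in GL261.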

How the data were processed

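The authors deposited 3 tables of unnormalised read counts, with Ensembl genes as rows and libraries as columns. Per the labels' protocols, cells were fixed in glyoxal, and a stranded KAPA mRNA kit gave paired-end libraries. The submitters' processing notes name Trimmomatic 0.36, STAR 2.6, Picard 2.17.1 and HTSeq 0.9.1 and the build mm10. The strand setting and annotation are not given in the sources used here.

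Counts were tested with edgeR 4.0.16 (R 4.3.3): quasi-likelihood F test, TMM scaling, filterByExpr with a minimum count of 10 and a minimum total of 15, 1 fit per cell type and table, Benjamini-Hochberg adjustment over all genes and a threshold of 0.05. SE is the absolute log2 fold change over the root of F. DESeq2 1.42.0, DESeq2 size factors, other filters, a replicate block, 2-group fits, leaving out each library and partner corrections were alternatives. The script was tested on simulated counts. The members and gene lists were chosen with earlier results of these data known. Of each list described, up to 2 risers and 2 fallers were named, taking the largest called changes among genes of mean log2 CPM 4 or more whose groups did not overlap. For likeness, the 3 genes with the highest r were named. Of the genes these rules chose, 2 are not reported here.

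None of the 22 replicate pairs was identical, and each differed beyond sampling noise. Where same-numbered libraries come from is stated nowhere. In the second experiment every same-numbered pair correlated in its deviations from the group means (0.15 to 0.39 in BV2, 0.34 to 0.59 in BMDM). With 2 libraries a group, both replicate numbers give the same correlation by construction, so each pair of groups holds a single value. The numbers were taken to pair those libraries only in the fits with a replicate block, and whether they do was not tested. The main tests used no block, and the blocked values for panobinostat in BV2, which pass for Zfp36 and Zfp36l1, are given beside them. In the first experiment not every pair passed 0.1 (-0.08 to 0.17 in BV2, 0.04 to 0.37 in GL261, -0.002 to 0.46 in BMDM), so they were not taken as pairs, although the 3 pairs of BMDM co-culture libraries lay between 0.24 and 0.46.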

Additional observations from a re-analysis of the deposited data

Results flagged for a closer look

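In 8 comparisons of effects, the effects compared had opposite signs and no overlap between the libraries of their groups. How many of all genes show such a pattern was not counted, so it is not read as a result about the members. None of these differences was tested, and effects from different tables were normalised separately. The hypoxia effect on Zfp36l2 in monoculture was lower in BV2 than in GL261 by a log2 difference of -1.35, and GL261 minus BMDM gave 0.92. In co-culture the same differences were -1.96 for BV2 minus GL261 and 1.60 for GL261 minus BMDM. The co-culture effect on Zfp36l2 in hypoxia differed by -1.22 (exactly -1.215) for BV2 minus GL261 and by 1.24 for GL261 minus BMDM. The groups did not overlap and ran lower in BV2 and BMDM but higher in GL261 in each of these 6 comparisons. Some margins were small. Hypoxia in BMDM monoculture cleared by 458 against 459 CPM (log2 fold change -0.11 ± 0.20, edgeR adjusted p = 0.738). Co-culture in hypoxic GL261 cleared by 75.4 against 72.2 CPM (0.28 ± 0.16, edgeR adjusted p = 0.449). For Zfp36, co-culture in normoxia gave higher values in BV2 and lower values in BMDM, a difference of 1.51. Within BV2, co-culture gave higher Zfp36 in normoxia and lower Zfp36 in hypoxia, which is the difference of -1.74 on which the gene had been selected.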

How the results depend on the processing

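Of 66 member values (3 genes in 22 comparisons), all 66 kept their direction and their side of the threshold (for untested values, moved by less than 1 SE) with DESeq2, with DESeq2 size factors and with genes of mean CPM below 5 left out. With genes left out that were 4-fold higher in the partner, 28 of 28 did. Zfp36l1 in BV2 and Zfp36l2 in GL261 were themselves removed by that filter, so it could not check them. Where a value changed, the cause was not tested. Without a filter beyond 1 count, 9 values changed: in GL261 monoculture hypoxia gave 0.56 for Zfp36 and 0.43 for Zfp36l1, now past the threshold, and in BMDM monoculture it gave -0.035 for Zfp36, with the sign turned. Panobinostat in BV2 gave 0.69 for both Zfp36 and Zfp36l1. In BMDM of the second experiment hypoxia gave 1.18 for Zfp36 and -1.32 for Zfp36l1, panobinostat gave -1.82 for Zfp36, and the BV2 minus BMDM difference of the latter was 2.39, all past the threshold. Fits of only 2 groups put Zfp36l1 in GL261 co-culture past the threshold (0.36), and lost Zfp36l2 for co-culture in hypoxic BMDM (-0.93) and for hypoxia in BV2 with DMSO (-0.65). The replicate block put Zfp36 (0.69) and Zfp36l1 (0.78) past the threshold for panobinostat in BV2 and changed the call of no other member. Subtraction of partner RNA was applied to log2 ratios of mean CPM without TMM scaling. For Zfp36l1 in BV2 it moved the ratio from -0.09 to -0.24 for hypoxia in co-culture and from -0.45 to -0.65 for co-culture in hypoxia.

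Leaving out each library in turn, 313 values met the criteria above and 65 did not. Of the 65, 23 turned sign and 30 were untested values that moved by 1 SE or more. The ranges follow as lowest to highest log2 fold change. In BV2, hypoxia in monoculture gave 1.66 to 2.09 for Zfp36 and -0.69 to -0.36 for Zfp36l2. Hypoxia in BV2 co-culture gave -0.17 to 0.35 for Zfp36, -0.18 to 0.16 for Zfp36l1 and -1.20 to -0.87 for Zfp36l2. Co-culture in normoxic BV2 gave 0.73 to 1.18 for Zfp36 and -0.61 to -0.35 for Zfp36l1. Co-culture in hypoxic BV2 gave -1.06 to -0.64, -0.63 to -0.39 and -1.17 to -0.83 for Zfp36, Zfp36l1 and Zfp36l2. The BV2 hypoxia-by-co-culture difference ran from -2.05 to -1.51, -0.20 to 0.16 and -0.69 to -0.30. In GL261, hypoxia gave 0.19 to 0.58 for Zfp36l1 in monoculture, and 0.38 to 1.26 for Zfp36 and 0.19 to 0.53 for Zfp36l1 in co-culture. Co-culture gave -0.021 to 0.42 for Zfp36 and -0.069 to 0.27 for Zfp36l2 in normoxia and -0.33 to 0.052 for Zfp36l1 in hypoxia, and the hypoxia-by-co-culture difference -0.14 to 0.73 for Zfp36 and 0.0073 to 0.44 for Zfp36l2. In BMDM, hypoxia gave -0.42 to 0.37 for Zfp36 and -0.41 to 0.11 for Zfp36l1 in monoculture, and 0.20 to 0.66, -0.03 to 0.55 and -0.82 to -0.50 for the 3 members in co-culture. Co-culture in hypoxic BMDM gave -0.48 to 0.31, -0.33 to 0.33 and -1.17 to -0.85, and the hypoxia-by-co-culture difference of Zfp36 was 0.083 to 0.87. In BV2 with DMSO, hypoxia gave -0.69 to 0.35 for Zfp36l1 and -0.80 to -0.52 for Zfp36l2, and panobinostat 0.30 to 1.28 for Zfp36l1. In BMDM of the second experiment, hypoxia gave -1.21 to 2.04 for Zfp36, and panobinostat -3.15 to 0.56 for Zfp36 and -0.14 to 0.41 for Zfp36l1. The BV2 minus BMDM differences ran from -0.0008 to 0.99 (Zfp36l1) and -0.17 to 0.69 (Zfp36l2) for panobinostat and from -0.34 to 0.47 (Zfp36l2) for hypoxia. The BV2 minus GL261 difference of the hypoxia-by-co-culture values ran from -2.54 to -1.67, -0.28 to 0.17 and -0.96 to -0.43 for the 3 members.

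Counts of genes called in a comparison moved more than the members did. For co-culture in BV2, 2152 (normoxia) and 2266 (hypoxia) genes became 1245 and 1461 with genes below a mean CPM of 5 left out and 1317 and 1385 without genes high in the partner, and the first count was 451 to 1714 without 1 library. The 316 calls for the BV2 hypoxia-by-co-culture difference became 688 with DESeq2, 981 without a filter and 59 to 682 without 1 library. For co-culture in GL261, 78 (normoxia) and 211 (hypoxia) became 162 and 459 with DESeq2, 361 and 737 without a filter, 124 and 20 in fits of 2 groups and 226 and 654 with the replicate block. The first of these became 11 above the CPM limit, 13 without genes high in the partner and 1 to 15 without 1 library, the second 74 to 329. For hypoxia in BMDM monoculture 3542 became 6289 in a fit of 2 groups and 1288 to 1567 without 1 library. For co-culture in BMDM, 243 (normoxia) and 1053 (hypoxia) became 634 and 1733 with DESeq2, 70 and 313 above the CPM limit, 1062 and 2141 without a filter and 20 and 90 without genes high in the partner. The first became 432 with the block and 3 to 288 without 1 library, the second 231 in a fit of 2 groups and 4 to 1792 without 1 library. In the second experiment, 4980 calls for hypoxia in BV2 became 2920 to 4758 without 1 library, and 1941 for panobinostat became 4025 with the block and 292 to 1342 without 1 library. In BMDM the 72 calls for hypoxia became 2247 with DESeq2, 3259 without a filter, 0 in a fit of 2 groups, 2127 with the block and 0 to 611 without 1 library, and the share of calls that were higher went from 97.22% to 57.32% with DESeq2. The 0 for panobinostat became 2221 with DESeq2, 66 with DESeq2 size factors, 53 above the CPM limit, 2867 without a filter and 2044 with the block. The BV2 minus BMDM differences went from 4 (panobinostat) and 106 (hypoxia) to 231 and 1167 with DESeq2, 613 and 1372 without a filter, 166 and 1298 with the block, and 0 to 82 and 0 to 1203 without 1 library, and the second to 247 above the CPM limit. Of the 308 counts of list genes called in 1 direction, 259 stayed within 1.5 times with DESeq2, 278 above the CPM limit and 258 with the block. The first experiment's replicate numbers were not taken as pairs. With 2 or 3 libraries a group, a missed threshold leaves a wide interval.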
